A study of Caenorhabditis elegans with 2 samples.

Results

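The dosage compensation complex of the nematode Caenorhabditis elegans was examined for LIN-13 binding at the genes that encode it. The 10 genes were chosen by name, with earlier results of these data known, out of 19973 protein-coding genes on the nuclear chromosomes. They were dpy-27, mix-1, dpy-26, dpy-28, capg-1, sdc-1, sdc-2, sdc-3, dpy-21 and dpy-30. All of them were found in the annotation. Of the 10 genes, 3 (dpy-27, mix-1 and dpy-30) carried a peak of the authors' final set, and the other 7 did not. LIN-13, a zinc finger protein of the synMuv B group of repressors, was mapped by ChIP-seq, the sequencing of DNA precipitated with a chromatin protein, in 2 biological replicates of mixed-stage embryos. The animals, pooled male and female, were of strain OP51, with genotype unc-119(ed3) III and the integrated transgene wgIs51, and the labels name eGFP-lin-13 as the target but lin-13 as the antibody. Both replicates belong to 1 group, so there was no contrast between conditions, and the control experiment that the labels name was not analysed here. Whole embryos were used, so binding in all of the cells at a lower level cannot be told apart from binding in some of them.

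The dosage compensation complex acts in hermaphrodites, which have a pair of X chromosomes where males have a single one, and it lowers transcription from both X chromosomes. Its core is a condensin, a ring built on the SMC proteins DPY-27 and MIX-1 and completed by DPY-26, DPY-28 and CAPG-1. DPY-27 is the subunit particular to dosage compensation, while the other condensin subunits also serve in mitotic or meiotic condensin. SDC-2 is the hermaphrodite-specific protein that brings the complex to the X, helped by SDC-3 and DPY-30. SDC-1 is a zinc finger partner, and DPY-21 is a demethylase that leaves histone H4 lysine 20 singly methylated on the X. DPY-30 is also a subunit of COMPASS, the histone H3 lysine 4 methyltransferase complex.

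The sequences under the member peaks are shown first, because the peaks differ in what they contain. All are WBcel235 (ce11) genome sequence, printed on the coding strand of the named gene and centred on the summit of the pooled region unless stated. Capitals mark matches on either strand to any of 5 motifs, the last of which was added after values had been seen. These were the GAGA repeat GAGAGAGA, the E2F-like TTCCCGC or TTCGCGC or TTGCCGC or TTGGCGC, the cell cycle homology region TTCGAA or TTTGAA, the zinc finger type CCACCC or CCGCCC, and GGTTCGA, the core of the B box through which RNA polymerase III transcribes tRNA genes. The dpy-27 sequence is chrIII:3820257-3820457 (minus strand) and is shown as the strongest member peak upstream of a start site. It holds no match to any of the motifs. The dpy-30 sequence is chrV:12191038-12191238 (plus strand), and it holds a single cell cycle homology match. The mix-1 intron sequence, chrII:10840180-10840380 (plus strand), is named for its summit, the only base of it that was assigned to an intron. It is shown because its peak is the strongest of the members and holds the only B box core match among the member sequences searched. From 10840317 on it lies in M106.6, a small nucleolar RNA gene inside mix-1, and so does its TTCGAA match.
dpy-27: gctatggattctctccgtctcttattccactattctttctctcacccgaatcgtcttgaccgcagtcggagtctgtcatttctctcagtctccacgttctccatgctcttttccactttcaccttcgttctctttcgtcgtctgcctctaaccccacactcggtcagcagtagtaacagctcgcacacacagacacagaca
dpy-30: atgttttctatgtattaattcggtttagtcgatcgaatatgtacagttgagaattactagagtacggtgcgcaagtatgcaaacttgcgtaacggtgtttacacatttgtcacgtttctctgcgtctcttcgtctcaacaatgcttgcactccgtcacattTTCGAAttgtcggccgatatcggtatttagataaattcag
mix-1 intron: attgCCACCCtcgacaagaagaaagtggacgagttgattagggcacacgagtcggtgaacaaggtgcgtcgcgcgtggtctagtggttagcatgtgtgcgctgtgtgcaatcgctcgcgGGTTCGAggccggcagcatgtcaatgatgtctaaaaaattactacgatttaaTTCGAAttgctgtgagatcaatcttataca

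The promoter peak of mix-1 had its summit in the 5′ untranslated region, so only the 85 bp upstream of that region (chrII:10824161-10824245, plus strand) and a window of 27 bp around its E2F-like match (chrII:10824261-10824287, plus strand) are shown. The match is centred 13 bp downstream of the summit and reads as the reverse complement of TTGGCGC. Cell cycle homology matches starting at 10824284, 10824302 and 10824353 also lie within 100 bp of this summit. The window of 27 bp ends inside the first of them, so it is not capitalised, and the others are not shown. The next sequences are from sites of members outside the final set. The sdc-2 sequence, chrX:11522204-11522404 (plus strand), is the site nearest to the limit of that set, and it holds no motif match. The dpy-26 sequence, chrIV:12451336-12451514 (minus strand, cut at the start of the transcript), holds an E2F-like match and 2 cell cycle homology matches.
mix-1 upstream: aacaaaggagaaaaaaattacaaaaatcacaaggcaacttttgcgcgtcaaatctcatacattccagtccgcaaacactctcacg
mix-1 match: ctcaaaagacGCGCCAAaaaacattca
sdc-2: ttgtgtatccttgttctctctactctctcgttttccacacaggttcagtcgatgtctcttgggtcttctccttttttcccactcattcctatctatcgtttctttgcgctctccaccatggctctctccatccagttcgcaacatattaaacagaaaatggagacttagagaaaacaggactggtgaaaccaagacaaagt
dpy-26: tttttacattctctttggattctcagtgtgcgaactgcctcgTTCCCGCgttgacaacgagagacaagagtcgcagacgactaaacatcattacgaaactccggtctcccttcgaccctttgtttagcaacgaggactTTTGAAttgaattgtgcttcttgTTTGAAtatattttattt

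Values in the lists are as follows. Each replicate, and both replicates pooled, had a list of 30000 regions with a signal value from the peak caller, and rank 1 is the strongest signal in its own list. The final set was made by the authors with the irreproducible discovery rate (IDR), which weighs how ranks recur between replicates, and its 1534 peaks were the first 1534 ranks of the pooled list. The signal of the last of them was 32.82. A region was assigned to a gene when its summit lay in the gene body or within 1000 bp of it. A second window, reaching 1000 bp before and 200 bp past a transcription start site (TSS), does not grow with the gene. Summits of different lists were called the same site within 100 bp. The lists give no read counts, so the depth of each replicate is unknown. The signal is the authors' value per region on a scale of its own in each list, so ranks are compared.

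LIN-13 had a final peak at 3 of the 10 genes, and all 3 had one near the TSS. By the gene window the count was 3 of 10, where 10.7% of all protein-coding genes had a peak. By the TSS window it was also 3 of 10, where 8.14% of all protein-coding genes did. With 10 members a count of 1 corresponds to the background, and no test of the list was made. The same 3 genes were those with a region among the first 1534 of replicate 1 alone, where 10.4% of protein-coding genes had one, and of replicate 2 alone, where 10.1% did. With only the final peaks above the median signal kept, the gene window still gave the same 3, but the promoter peak of mix-1 was not above the median. In the TSS window 2 of the 10, dpy-27 and dpy-30, then had a peak. The shares of all protein-coding genes were then 5.99% and 4.57%.

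**Figure D1:**
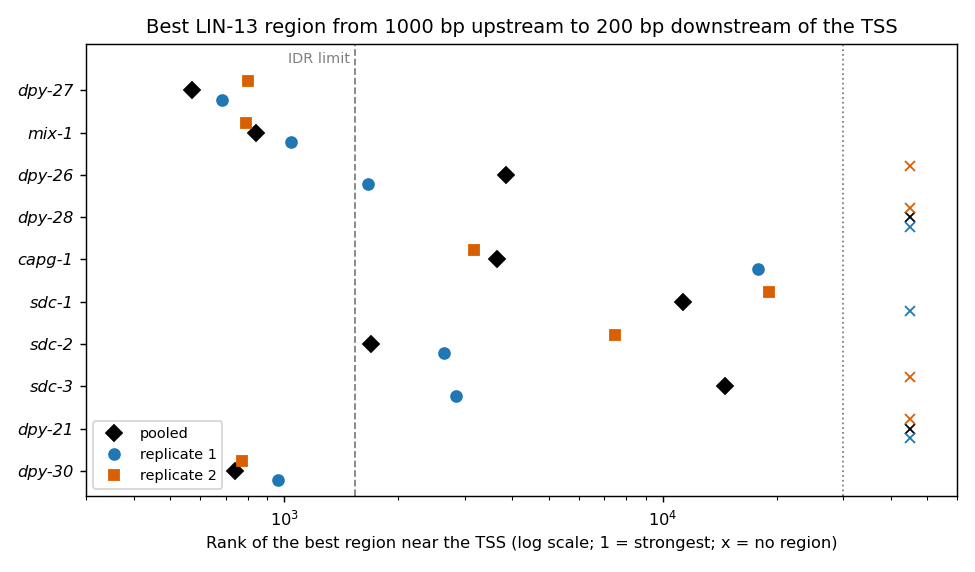
Rank of the best region in the TSS window (x axis, log scale) for each of the 10 genes (y axis) in the pooled list and in each replicate, with a dashed line at rank 1534, a dotted line at the end of the lists and a cross where no region lay in the window. The dpy-27, mix-1 and dpy-30 marks all lie left of the dashed line, the sdc-2 marks at 1699, 2649 and 7482 lie right of it, and dpy-28 and dpy-21 have crosses only.

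Among the SMC proteins of the complex, dpy-27 (WBGene00001086, chromosome III, 3813018 to 3819679, minus strand) had a single final peak, at 3820215 to 3820498. Its summit lay 678 bp upstream of the only annotated TSS, in intergenic sequence. The peak ranked 570 in the pooled list with a signal of 57.14, 685 in replicate 1 with a signal of 21.16 and 803 in replicate 2 with a signal of 30.8. All 3 ranks are inside the first 1534, and the replicate summits lay 36 and 21 bp from the pooled one. The only other gene with this summit within 1000 bp was R13G10.5, a noncoding RNA gene on the same strand, 84 bp downstream of the summit. The pooled list held 2 further regions in the body of dpy-27, at ranks 9006 and 21975, and neither was found in both replicates.

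The mix-1 gene (WBGene00003367, chromosome II, 10824246 to 10841424, plus strand), which encodes the SMC partner of DPY-27, had 2 final peaks, at its start and near its end. The first, at 10824119 to 10824402, had its summit 15 bp downstream of the TSS in the 5′ untranslated region. It ranked 840 in the pooled list with a signal of 47.07, 1039 in replicate 1 with a signal of 17.07 and 793 in replicate 2 with a signal of 30.95. The same summit was 180 bp upstream of R06F6.12, a coding gene on the opposite strand whose transcript runs away from mix-1. The second, at 10840138 to 10840421, was stronger. It ranked 394 in the pooled list with a signal of 67.72, 525 in replicate 1 with a signal of 24.33 and 397 in replicate 2 with a signal of 43.51.

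The summit of the second mix-1 peak lay in an intron, 16034 bp from the TSS. It was 37 bp upstream of M106.6 (WBGene00014447, 10840317 to 10840391), the small nucleolar RNA gene inside mix-1, which the peak covers. It was therefore closer to M106.6 than to any start of mix-1. The sequence of this peak, printed above, holds GGTTCGA centred 22 bp downstream of the summit, in a search added after values had been seen. Of final peaks 5.48%, and of 27480 lower-ranked pooled regions 2.37%, held those letters within 100 bp. No tRNA gene was annotated near it, the closest on the chromosome being 317522 bp away. The GC content within 50 bp of the summit was 59.4%, and 93.8% of final peaks were at or below that. The other member peaks of the final set had 49.5% at dpy-27, 44.6% at dpy-30 and 43.6% at the mix-1 promoter, where the median of all final peaks was 50.5%.

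The dpy-30 gene (WBGene00001088, chromosome V, 12191519 to 12192385, plus strand) is short, at 867 bp, and had a final peak at 12190996 to 12191279, in intergenic sequence 381 bp upstream of its TSS. The peak ranked 743 in the pooled list with a signal of 50.11, 962 in replicate 1 with a signal of 17.66 and 775 in replicate 2 with a signal of 31.36. The summits of the 2 replicates lay 3 and 12 bp from the pooled summit. A noncoding RNA gene, ZK863.11, starts 438 bp before the summit on the same strand. No other coding gene had this summit within 1000 bp.

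All 4 member peaks of the final set had nearly the same rank in both replicates. The fold between the replicate ranks was 1.17 at dpy-27, 1.24 at dpy-30, 1.31 at the mix-1 promoter and 1.32 in the mix-1 intron. Over the 1373 final peaks with a region in both replicates the median fold was 2.43, with quartiles of 1.47 and 4.76. The 4 member peaks were thus all below the lower quartile, and the share of final peaks with a fold as small or smaller was 10.4% at dpy-27 and 18.6% in the mix-1 intron. The peak of dpy-27 was ranked higher in replicate 1 and the other 3 in replicate 2. With folds of up to 1.32 between replicates, the ranks of the dpy-30 and mix-1 promoter peaks do not differ beyond their spread. They were 962 and 1039 in replicate 1 and 775 and 793 in replicate 2. The mix-1 intron peak ranked above the other 3 in both replicates. Its lead over dpy-27 in replicate 1, at 525 against 685, was within that spread.

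**Figure D2:**
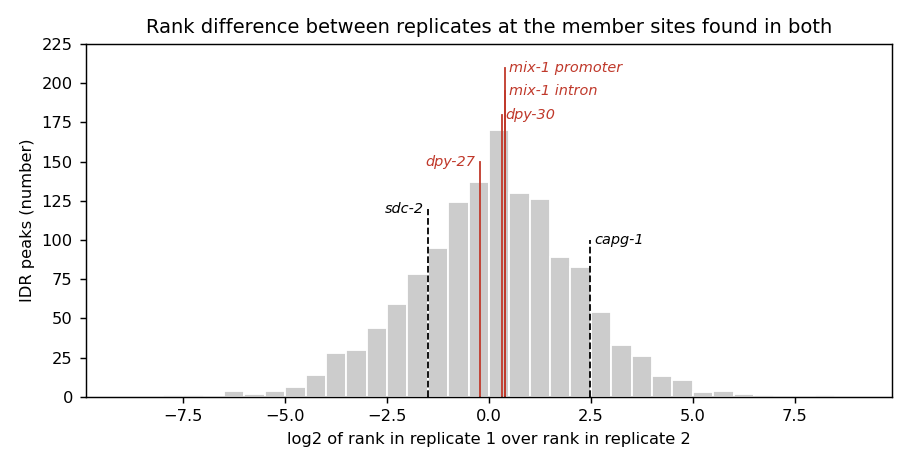
Histogram of log2 of the rank in replicate 1 over the rank in replicate 2 (x axis) for the 1373 final peaks found in both replicates (y axis, number of peaks), with lines at the member sites found in both (solid red for final peaks, dashed black for sites outside the final set). The 4 red lines lie next to 0, and those of sdc-2 and capg-1 lie to either side of them.

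Of the SDC genes, sdc-2 had a site just outside the final set, and sdc-1 and sdc-3 had none near it. The sdc-2 site (WBGene00004746, chromosome X, 11522707 to 11533450, plus strand) was intergenic, 403 bp upstream of the TSS. It ranked 1699 in the pooled list with a signal of 30.68, 2649 in replicate 1 with a signal of 9.509 and 7482 in replicate 2 with a signal of 11.53. The authors' −log10 q value was 3.05 in the pooled list, where final peaks all stood at 3.51, and 3.76 in replicate 1 and 0.706 in replicate 2. The summits of the 2 replicates were 8 and 0 bp from the pooled one. The rank fold was 2.82, close to the median of final peaks. With 2 times as many pooled regions as the final set holds, sdc-2 joined dpy-27, mix-1 and dpy-30, a count of 4 of 10 where 17.8% of protein-coding genes had a region.

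At sdc-3 (WBGene00004747, chromosome V, 15039148 to 15048207, minus strand), a zinc finger gene needed to load the complex, the replicates differed. A site 187 bp upstream of the TSS ranked 14622 in the pooled list with a signal of 10.59. Replicate 1 had it at rank 2851 with a signal of 9.169 and a −log10 q of 3.76, the ceiling at which 2885 regions of that list stood. Replicate 2 had no region within 100 bp. At sdc-1 (WBGene00004745, chromosome X, 16275763 to 16282534, plus strand), the site 303 bp upstream of the nearer of 2 TSSs ranked 11275 in the pooled list and 19068 in replicate 2, and replicate 1 had none. Its sequence held a GAGA repeat, an E2F-like and a zinc finger type match within 100 bp of the summit.

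The remaining condensin genes had weaker or discordant sites. At dpy-26 (WBGene00001085, chromosome IV, 12445801 to 12451335, minus strand), which encodes the kleisin that closes the ring, a summit 79 bp upstream of the TSS ranked 3843 in the pooled list with a signal of 18.83. Replicate 1 had it at the same base, at rank 1664 with a signal of 12.6 and a −log10 q of 3.76. Replicate 2 had no region near it, and its only region in the gene window was 3483 bp into dpy-26, in a coding exon, at rank 2157 with a signal of 18.59. Another replicate 2 region, at rank 3786, lay past the end of the gene and just outside that window, and it matched a pooled site inside it. The strongest dpy-26 region was thus near the start of the gene in replicate 1 and inside the gene in replicate 2. At capg-1 (WBGene00009254, chromosome I, 7634492 to 7639785, minus strand), a site 295 bp upstream ranked 3641 in the pooled list, 17809 in replicate 1 and 3175 in replicate 2. This is a fold of 5.61, above the upper quartile of final peaks. The summit held an E2F-like match centred 14 bp away. In replicate 2 the strongest capg-1 region was another, in a coding exon 3307 bp into the gene, at rank 2561 with a signal of 17.24. Its match in the pooled list ranked 5740, and replicate 1 had no region within 100 bp of that match.

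Neither dpy-28 nor dpy-21 had a region in the TSS window, which ends 200 bp past the start. The dpy-21 region nearest to its TSS was 575 bp into the gene, at pooled rank 17580. At dpy-28 (WBGene00001087, chromosome III, 10763131 to 10777076, plus strand), a condensin HEAT repeat subunit gene, the pooled list held 5 regions, all inside the gene, of which the best ranked 14878 with a signal of 10.51. The best ranks were 13535 in replicate 1 and 21921 in replicate 2, the weakest of the 10 genes in the pooled list and in replicate 2. At dpy-21 (WBGene00001080, chromosome V, 17936282 to 17949193, minus strand) the pooled list held 11 regions, the most of any member, at ranks 5823 to 29177. Of those 11, 8 had a region in replicate 2 within 100 bp, 1 had one in replicate 1 and none had one in both. The pooled region with its summit at 17943988 was matched in replicate 2, and a replicate 1 summit at 17944103 lay just past 100 bp from it. The best ranks at dpy-21 were 4422 in replicate 1, at 13857 bp from the TSS and beyond the end of the gene, and 2686 in replicate 2, at 11813 bp.

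**Figure D3:**
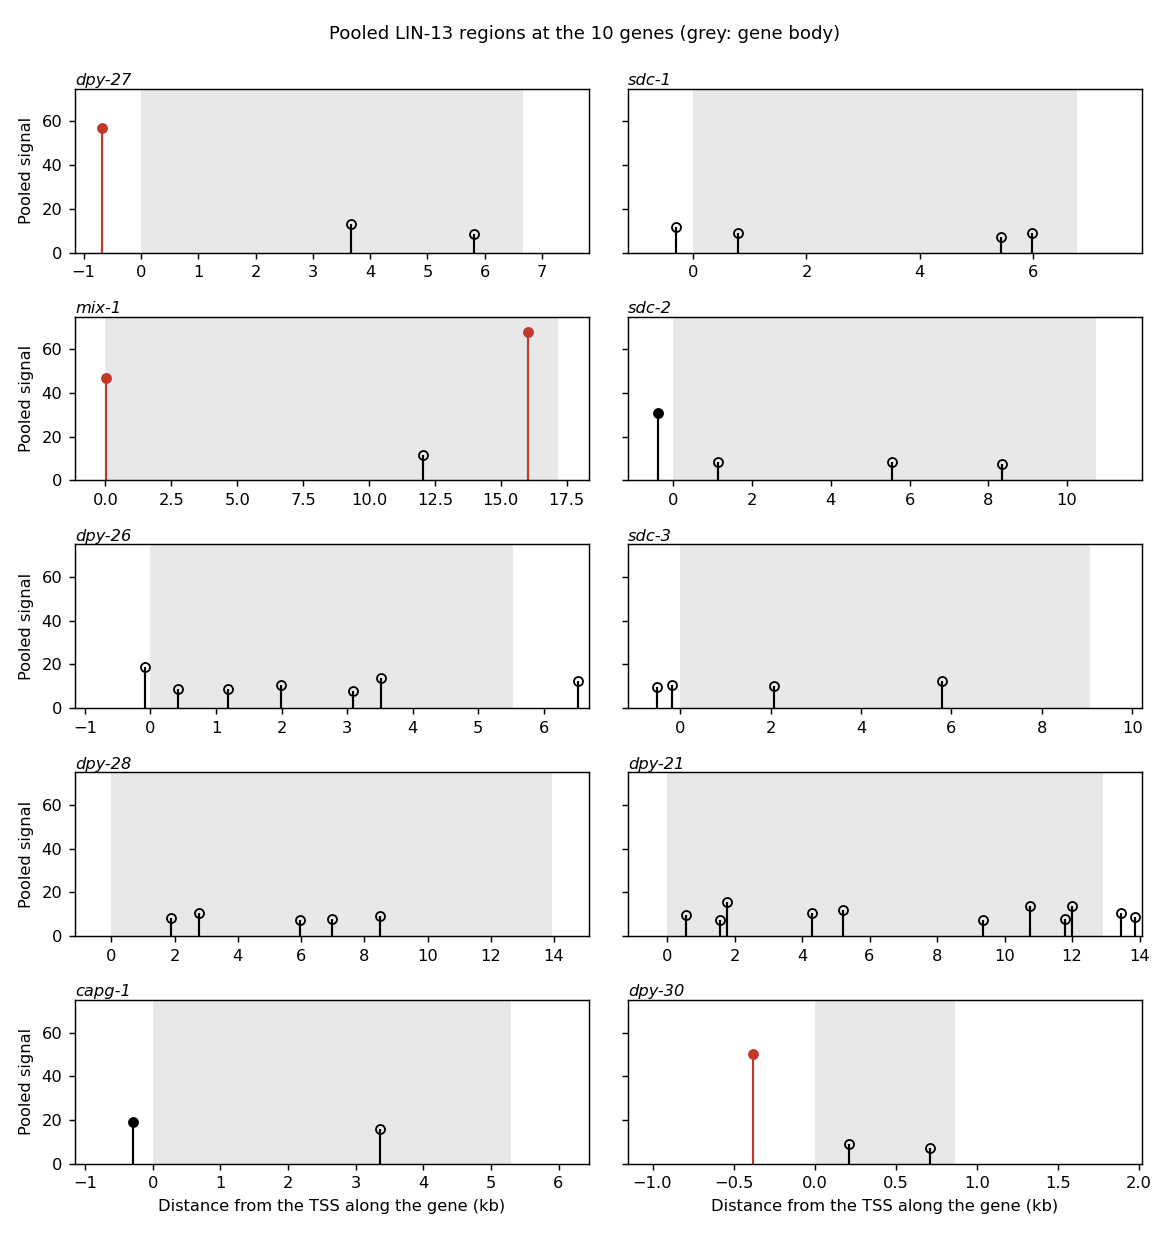
Pooled regions at the 10 genes by distance of the summit from the nearest TSS (x axis, kb; grey, gene body) and pooled signal (y axis). Red marks final peaks, and filled circles mark sites with a summit within 100 bp in both replicates. Filled circles stand near the start of dpy-27, mix-1, capg-1, sdc-2 and dpy-30 and at the far end of mix-1, and the other regions have signals of at most 18.83.

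Having some region in the lists of 30000 separated nothing, since these lists reach into background. All 10 genes had at least 1 region in the pooled list, in replicate 1 and in replicate 2, where 66.3%, 72.6% and 66.2% of protein-coding genes did. The members are long, with a median length of 7916 bp against 2027 bp for all protein-coding genes. Per 10 kb of window the pooled list held 4.22 regions at the members and 3.25 at all protein-coding genes. In all, 46 pooled regions lay at the members, 16 of them in coding exons, 17 in introns and 8 upstream.

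By the summit distance set above for the same site, sites found in both replicates were few, and most lay at starts of genes. Of the 46 pooled sites, 6 were found in both replicates, 8 in replicate 1 only, 23 in replicate 2 only and 9 in neither. Of the 9 sites in a TSS window 5 were found in both (55.6%), and of the other 37 sites 1 was, the mix-1 intron peak. Over the whole pooled list 18.3% of regions were found in both, with 27.5% of the 9516 in the TSS window of any protein-coding gene and 2861 of the other 20484. Below the final set 2 of 42 member sites (4.76%) were found in both, where 14.4% of all pooled regions below it were. The counts outside TSS windows and below the final set depend on the summit distance. Pooled sites at ranks 11771 (dpy-21), 20055 (dpy-28) and 20526 (sdc-1), all inside genes, were matched in replicate 2. Each also overlapped a replicate 1 region whose summit lay past the limit. A wider limit would add them, and the shares of all pooled regions were not computed at another limit. A site near the TSS in all 3 lists was present at 5 of the 10 genes, dpy-27, mix-1, capg-1, sdc-2 and dpy-30, where 16.1% of protein-coding genes had one. This count was added after the values had been seen. With ranks of up to 10000 required in each list, capg-1 dropped out, and 10.8% of protein-coding genes had such a site.

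The sites near the 8 start sites with a region differed in motif content from gene to gene. E2F-like letters were within 100 bp of the summit at 4 of 8, namely mix-1, dpy-26, capg-1 and sdc-1. They were found at 20.3% of final peaks and 10.8% of lower-ranked pooled regions. Shares here are of regions wherever they lay, and none was computed for regions in TSS windows alone. The cell cycle homology letters were found at 5 of 8, namely mix-1, dpy-26, capg-1, sdc-3 and dpy-30, with shares of 43.0% and 46.2%. The GAGA repeat and the zinc finger type letters were each found at sdc-1 alone among the 8, with shares of 8.67% and 17.8% of final peaks and 3.01% and 11.6% of lower-ranked regions. A match is a description of the letters, and with 8 sites no share was tested.

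Peaks most like those of the members, by log10 rank in both replicates, belonged to genes of various kinds. For each member peak the 2 closest final peaks within 1000 bp of a coding TSS were taken. For dpy-27 they were at sar-1 (ranks 644 and 809 in replicates 1 and 2), a small GTPase gene of the secretory pathway, and Y17G7B.20 (689 and 857). For dpy-30 they were at Y67D2.2 (942 and 750) and B0041.8 (920 and 766). For the mix-1 promoter they were at nstp-10 (1075 and 807) and aip-1 (1093 and 752), and for the mix-1 intron at T23F6.3 (535 and 367) and gex-3 (481 and 406). The likeness is of rank over 2 replicates and nothing else.

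Genes that work beside the complex had final peaks at 16 of 35 by the gene window and at 15 of 35 by the TSS window, beside the 10.7% and 8.14% of all protein-coding genes. These lists were chosen with earlier results known, and no test was made. Of the 4 condensin subunit genes outside the complex, smc-4, hcp-6 and kle-2 had a peak and capg-2 had none. The hcp-6 peak, at the condensin II HEAT subunit gene, was the strongest, at rank 512 in the pooled list, 612 in replicate 1 and 602 in replicate 2, 129 bp upstream of the TSS. It lay upstream of let-630 as well. The smc-4 peak (pooled rank 1245, with 819 in replicate 1 and 1465 in replicate 2), at the SMC partner of MIX-1 in the other condensins, was shared with F35G12.7. The kle-2 peak (pooled rank 1296) was 698 bp upstream and closer to C29E4.12. It ranked 4055 in replicate 1, outside the first 1534, and 1353 in replicate 2.

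Of the 8 COMPASS partners of DPY-30, set-16, ash-2 and utx-1 had a peak, and set-2, wdr-5.1, rbbp-5, cfp-1 and pis-1 had none. The set-16 peak ranked 26 in the pooled list with a signal of 165.2, 96 in replicate 1 and 20 in replicate 2. It lay 182 bp upstream of set-16, an MLL-type methyltransferase gene, and was closer to drr-2. The ash-2 gene had 2 peaks, at pooled ranks of 256 and 1014. The second is the Y17G7B.20 peak named above and is nearer to that gene. The utx-1 peak ranked 982. Both genes for methylation of histone H4 lysine 20, the residue on which DPY-21 acts, had a peak upstream. The set-4 peak ranked 207 (55 in replicate 1 and 519 in replicate 2) and the set-1 peak 1275 (1807 and 1249).

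Of 13 genes of the X signal and sex determination, 3 had a peak by the gene window and 2 by the TSS window, the shares nearest to the background among the lists. The ceh-39 peak, at the homeobox gene that acts as an X signal element, ranked 734 and lay 228 bp upstream. The fem-1 peak ranked 1366 and lay 22 bp upstream. The fem-3 peak ranked 1040 but was past the end of fem-3 and nearest to aly-1. There was no final peak at xol-1, the switch gene that sets sdc-2 activity, at sex-1, fox-1, sea-1 or sea-2, or at her-1, the target of SDC proteins. Nor was there one at tra-1, tra-2, tra-3 or fem-2. Of 8 cohesin genes, smc-3, scc-1, scc-2, coh-1 and wapl-1 had a peak and scc-3, mau-2 and evl-14 had none. The smc-3 peak, 166 bp upstream of smc-3, was closer to mib-1 and also lay upstream of gly-9. The wapl-1 peak, at the gene for the cohesin release factor, ranked 65 in the pooled list and 78 in both replicates. The scc-2 peak, at the cohesin loader gene, ranked 155, with 503 and 121 in the replicates. Of the 2 scc-1 peaks, at pooled ranks of 885 and 1349, the first was closer to rpn-5 and the second lay near unc-85, with ranks of 643 and 21044 in the replicates.

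**Figure D4:**
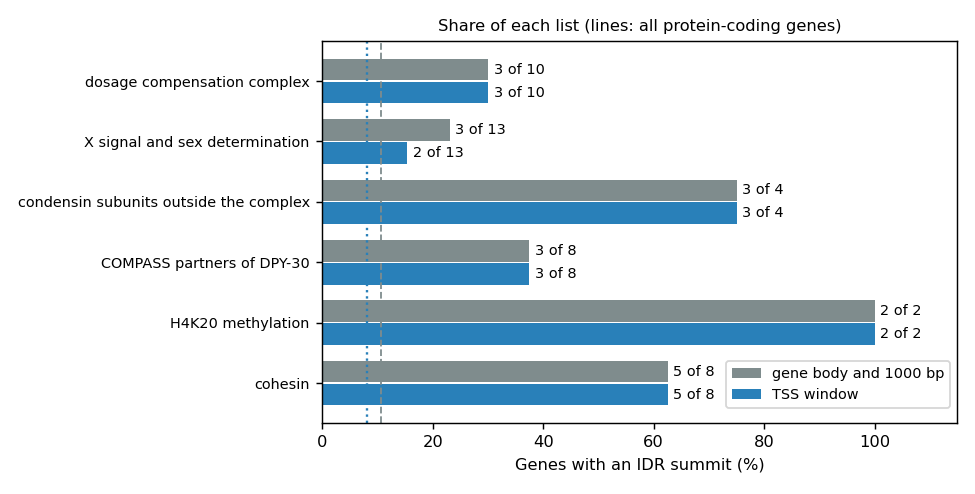
Percent of the genes of each list with a final peak (x axis) by the gene body with 1000 bp on each side (grey bars) and by the TSS window (blue bars), with counts beside the bars and lines at the shares of all protein-coding genes (dashed grey for 10.7%, dotted blue for 8.14%). The dosage compensation complex has 3 of 10 by both windows.

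By best region near the TSS, the same 3 genes came first in both replicates, and dpy-28 and dpy-21 had no region in either. In the pooled list the order was dpy-27, dpy-30, mix-1, sdc-2, capg-1, dpy-26, sdc-1 and sdc-3, at ranks of 570, 743, 840, 1699, 3641, 3843, 11275 and 14622, and then dpy-28 and dpy-21 with none. Among all protein-coding genes, 3.51% had a better region near their TSS than dpy-27, 4.45% than dpy-30, 4.99% than mix-1 and 8.72% than sdc-2. In replicate 1 the order after dpy-27, dpy-30 and mix-1 was dpy-26, sdc-2, sdc-3 and capg-1. In replicate 2 it was dpy-30, mix-1 and dpy-27, at ranks 775, 793 and 803, and then capg-1, sdc-2 and sdc-1. The order of the first 3 changed between the replicates.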

How the data were processed

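LIN-13 ChIP-seq of 2 biological replicates of mixed-stage embryos formed 1 group, with replicate numbers from the labels. The members and lists were chosen with earlier results of these data known. The deposited lists were in narrowPeak layout. By their titles, the replicate and pooled lists hold peaks and background as input for IDR. Per the file headers, the pooled list was made from the alignments of both replicates with a control, and the final set from the pooled and replicate lists. Names and settings of the aligner and caller were not given in the sources used here. Column 7, deposited by the authors as signal, gave the ranks within a list, and column 9, the deposited −log10 q value, is quoted for single regions. Median widths were 220 bp for replicate 1, 316 for replicate 2 and 284 for the pooled list. Equal signals share the better rank, with 1490 ties in replicate 1. The lists hold no counts, so no counting interval is given.

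Genes were taken from the Ensembl release 115 annotation of WBcel235 (ce11) and sequences from the RefSeq genome of that build, with positions counted from 1. The ce10 lists were not used, since positions were not converted between builds. The symbols sex-2 and smc-1 were unmatched. An annotated worm TSS is often a trans-splice site. The comparison set for motifs took pooled regions more than 1000 bp away from all IDR summits. Counts were set beside all protein-coding genes, with no test. Named genes were all members, related genes with an IDR summit (and those without one in lists of up to 10 genes), genes sharing a member's peak, and the 2 closest peaks by rank. The sex determination genes without a peak and the GGTTCGA search were added after values had been seen. The edges of the windows were checked with single simulated summits planted at and just past them, which checks the edges only. Python 3.11.15, pandas 2.3.3 and numpy 2.4.6 were used. Alternatives were other windows, overlap in place of summits, other list lengths, single replicates, the nearest TSS, and other summit distances and motif windows.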

Additional observations from a re-analysis of the deposited data

How the results depend on the processing

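The count of members with a final peak stayed at 3 with a flank of 2000 bp (13.7% of all protein-coding genes), any overlap of the region (11.1%), only the peaks above the median signal (5.99%), peaks in the top of both replicates (6.22%), the nearest coding TSS alone (7.24%) and the intronic mix-1 peak left out (10.7%). It was 3 without replicate 1 and 3 without replicate 2, for the gene window (10.1% and 10.4%) and for the TSS window (7.26% and 7.92%). It was 2 with a flank of 500 bp (8.84%), where dpy-27 was lost, and 1 within gene bodies alone, where only mix-1 remained and 1.54% of protein-coding genes had a peak. The TSS count was 2 with 500 bp upstream, with 200 bp (6.71%) or 500 bp (6.85%) allowed downstream. The first 10000 ranks kept 8 members in the pooled list and 7 in each replicate, where 37.5%, 39.1% and 36.7% of protein-coding genes were kept in the pooled list, replicate 1 and replicate 2. Of the 35 related genes, 13 had a peak without replicate 1 and 17 without replicate 2, where 10.1% and 10.4% of protein-coding genes did. Of the 4 member peaks, 1 held the cell cycle homology letters within 50 bp and 3 within 100 bp. The shares of all final peaks were 22.0% and 43.0%, and of lower-ranked regions 26.4% and 46.2%. The zinc finger type letters were held by 0 within 50 bp, 1 within 100 bp and 2 within 250 bp. For these the shares of final peaks were 11.1%, 17.8% and 26.9%, and of lower-ranked regions 6.54%, 11.6% and 22.0%. These motif counts and the shares beside them all rose with the width of the window. Unknown depth and a ceiling in the q value limit what can be said of the lower-ranked sites. No paired analysis was possible because there was 1 group.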
